A study of Arabidopsis thaliana with 30 samples.

Results

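The first 2 h of light were followed in seedlings of the bdr1,2,3 triple mutant of Arabidopsis thaliana, by RNA-seq of whole seedlings. The comparison holds the 6 mutant libraries of these conditions, chosen by their labels, out of 30 libraries in the whole series and 18 in its light experiment. The 3 libraries of the group exposed to light came from bdr1,2,3 seedlings that, by their labels, grew for 5 days in the dark at 21 °C and then received white light for 2 h. The study's text instead places the light in the last hours of the fifth day, so the exact time in darkness is uncertain. The 3 libraries of the dark group came from bdr1,2,3 seedlings of the same age and temperature that stayed in the dark. Wild-type seedlings of the Col-0 ecotype, treated in the same way (3 libraries after 2 h of light and 3 in the dark), were used only to test whether the response of the mutant differed. The mutant combines T-DNA insertions in BDR1, BDR2 and BDR3 and is represented by this 1 genotype. The labels speak of 3 plates per condition and say nothing more of the replicates, so the p-values measure only the spread between these samples, which may be technical.

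BDR proteins carry an SPOC domain and the central domain of the elongation factor TFIIS, and act on RNA polymerase II during transcription. A seedling that germinates in the dark elongates its hypocotyl, keeps an apical hook over closed cotyledons and lives on seed reserves. Light turns this program over. Active phytochromes and cryptochromes remove the phytochrome-interacting factors (PIFs), which drive elongation, and restrain the COP1/SPA ubiquitin ligase, so that HY5 and other activators accumulate and the chloroplast is built.

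Total counts ranged from 10939766 to 22888978 in the 6 mutant libraries and from 7517174 to 22888978 in the 18 libraries of the light experiment. The mitochondrial share of counts was 0.114% in mutant 2 h replicate 3 and 0.0384% to 0.0584% in the other mutant libraries used here. In a principal component analysis of the 500 most variable genes over the 12 dark and 2 h libraries, the first component separated light from dark with 92.8% of the variance and the second separated the genotypes with 5.06%. Values are given as CPM, counts scaled to the size of each library and not corrected for gene length, so levels are compared between libraries and not between genes. Of 33602 genes in the table, 19521 passed the filter on low counts and were tested. A gene was called higher or lower in light when edgeR's quasi-likelihood test gave an adjusted p below 0.05 over all genes tested.

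The 3 BDR genes were measured first. BDR1 (AT5G25520) had 2.58, 2.5 and 2.99 CPM in the light libraries of the mutant, against 2.71, 1.91 and 3.17 CPM in its dark libraries, which overlapped, and was not called. BDR2 (AT5G11430) had 10.7, 12.0 and 11.4 CPM in light, against 15.1, 14.3 and 13.7 CPM in the dark. It was called lower, by a log2 fold change of -0.34 ± 0.12 (SE, edgeR adjusted p = 0.0124), but the call was lost without light replicate 1 (-0.30, edgeR adjusted p = 0.0505) or without dark replicate 1 (-0.30, edgeR adjusted p = 0.0536). BDR3 (AT2G25640) had 1.86, 1.54 and 1.72 CPM in light, against 3.72, 2.90 and 3.24 CPM in the dark, and was lower by a log2 fold change of -0.97 ± 0.20 (SE, edgeR adjusted p = 0.000174). In the wild type BDR2 had 21.3, 28.9 and 25.4 CPM in light, against 23.57, 20.94 and 18.44 CPM in the dark. The response of BDR2 differed from that of the wild type by -0.61 ± 0.16 (SE, edgeR adjusted p = 0.0467), a call that was lost under 13 of 21 alternatives. All 3 genes overlap another annotated gene. Reads that remain from genes with insertions need not give a working transcript.

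After 2 h of light, 6615 of the 19521 tested genes (33.9%) were called higher in the mutant and 6591 (33.8%) were called lower, so that 13206 (67.7%) changed in either direction. The median log2 fold change over all tested genes was -0.01. The scaling of the counts places the bulk of genes near 0, so the balance of rises and falls is relative. With upper-quartile scaling, 6082 genes were called higher and 7220 lower. At least 2-fold rises were seen in 2832 genes and at least 2-fold falls in 2024 genes. The tail was longer on the side of the rises: 552 genes rose at least 8-fold and 192 fell at least 8-fold. In 6416 of the genes called higher every light library lay above every dark library, and in 6350 of the genes called lower every light library lay below. In whole seedlings, fewer cells of a type and less RNA per cell cannot be told apart. Because 33.9% and 33.8% of all tested genes were called in each direction, counts of genes in a pathway are read against these shares. Pathways are described through 28 lists with 486 genes in all, of which 472 could be tested. The lists and their members were chosen with earlier results of these data known. Their counts therefore describe the chosen genes and are no independent test of a pathway.

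The largest rises were in genes that gave nearly no counts in the dark. The serine carboxypeptidase-like gene scpl10 (AT2G23000) had 57.1, 57.8 and 57.2 CPM in light, against 0 CPM in all 3 dark libraries, a rise of at least 242-fold when the dark level is set to 3 counts in a library. The microRNA gene MIR163 (AT1G66725) had 66.8, 65.9 and 66.4 CPM in light and stayed at or below 0.0874 CPM in the dark. Both switched from silence to a level that varied little between libraries. AT5G42760, annotated as a leucine carboxyl methyltransferase, was at least 178-fold higher. Of the other genes among the 10 largest rises, BBX25, BBX32 and BBX30 encode B-box zinc finger proteins of light signalling. BBX25 had 50.8, 48.6 and 49.96 CPM in light, against 0.0437, 0.153 and 0.0791 CPM in the dark. BBX30 had 22.2, 19.0 and 21.3 CPM in light, against 0.0437, 0 and 0 CPM in the dark, and BBX32 rose by a fitted log2 fold change of 9.13. MYB12, an activator of flavonol synthesis genes, had 0 CPM in every dark library and was at least 28.7-fold higher, AT5G24155 and AT2G15020 were each at least 23.3-fold higher, and the light-harvesting gene LHCB1.1 rose by a log2 fold change of 9.32. The strand setting of the counting is not given, so counts of scpl10, AT5G42760 and BBX25 may include reads of the genes that overlap them on the other strand. In all, 136 genes called higher had at most 3 counts in every dark library.

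The largest falls reached a log2 fold change beyond -5 within the same 2 h. BBX23 (AT4G10240), another B-box gene, had 0 CPM in all 3 light libraries, against 16.4, 14.7 and 6.96 CPM in the dark, which is at least 46.5-fold lower. PIL1 (AT2G46970), a gene of the PIF family known as a rapid reporter of shade, had 0.484, 0.398 and 0.363 CPM in light, against 45.8, 51.3 and 44.2 CPM in the dark. Its log2 fold change was -6.79 ± 0.16 (SE, edgeR adjusted p = 6.82e-21). The growth-regulating factor gene GRF7 followed with a log2 fold change of -6.32 and the pyruvate decarboxylase gene PDC3, of ethanol fermentation, with -5.74. The other genes among the 10 largest falls are described here by the product line of their annotation alone. AT4G13790 belongs to the SAUR family of small auxin-induced proteins (-5.54) and AT4G25580 encodes a CAP160 protein (-5.27). AT1G77330 encodes a member of the superfamily of oxygenases named for 2-oxoglutarate and iron (-5.24). AT5G57760 (-5.97), AT2G34020 (-5.50) and AT5G44260 (-5.41) encode an uncharacterized protein, an EF-hand calcium-binding protein and a zinc finger protein. Of the genes called lower, 65 had at most 3 counts in every light library.

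Promoters of some of these genes are shown because HY5, the PIFs and the clock protein CCA1 belong to networks that read short DNA words. The G-box CACGTG, which reads the same on both strands, is bound by bZIP proteins such as HY5 and by bHLH proteins such as the PIFs. It was searched from 250 bases before to 50 bases after the annotated start, together with the ACGT core that it contains, the evening element AAATATCT, the I-box core GATAA and the auxin response element TGTCTC, each on both strands. The G-box was found in 13.7% of the 2825 promoters of genes called at least 2-fold higher, in 8.36% of the 2021 promoters of genes called at least 2-fold lower, and in 8.93% of the 19427 promoters of all tested genes. Among genes at least 8-fold higher the share was 19.2% of 552, and among those at least 8-fold lower it was 11.5% of 192. The ACGT core was found in 57.1%, 50.4% and 50.4% of the same first 3 sets. The evening element showed the other order, with 6.69% of promoters of genes called at least 2-fold higher, 8.16% of those at least 2-fold lower and 5.83% of all. The I-box core (62.8%, 63.1% and 61.7%) and TGTCTC (14.5%, 15.0% and 13.6%) were spread more evenly. These shares are descriptions and no test was run on them.

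The 250 bases before the start follow for 5 genes that rose and hold a G-box, and for PIL1, which fell and holds none. They come from RefSeq's TAIR10.1 assembly and run 5′ to 3′ on the strand of the gene, with capitals marking the G-box and, in TT4, also the evening element. BBX30 lies at chr4:8708591-8708840 on the plus strand, MYB12 at chr2:19476076-19476325 on the plus strand, TT4 at chr5:4488226-4488475 on the plus strand, ELIP1 at chr3:8085670-8085919 on the minus strand, CCA1 at chr2:19245341-19245590 on the plus strand and PIL1 at chr2:19297859-19298108 on the minus strand. CCA1 was added to show a clock gene.
BBX30: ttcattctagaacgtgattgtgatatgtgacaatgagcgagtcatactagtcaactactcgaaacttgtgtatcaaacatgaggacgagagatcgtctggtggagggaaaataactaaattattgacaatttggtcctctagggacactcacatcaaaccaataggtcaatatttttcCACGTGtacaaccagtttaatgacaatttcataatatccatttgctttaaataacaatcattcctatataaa
MYB12: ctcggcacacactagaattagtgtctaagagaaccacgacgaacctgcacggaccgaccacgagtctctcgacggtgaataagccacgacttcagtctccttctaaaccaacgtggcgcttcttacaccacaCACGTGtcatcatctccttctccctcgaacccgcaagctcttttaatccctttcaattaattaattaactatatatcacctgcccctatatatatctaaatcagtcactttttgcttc
TT4: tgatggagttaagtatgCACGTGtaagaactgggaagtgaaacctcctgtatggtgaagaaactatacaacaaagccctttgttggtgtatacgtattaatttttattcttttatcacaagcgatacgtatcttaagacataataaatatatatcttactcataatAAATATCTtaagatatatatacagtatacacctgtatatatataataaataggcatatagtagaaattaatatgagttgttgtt
ELIP1: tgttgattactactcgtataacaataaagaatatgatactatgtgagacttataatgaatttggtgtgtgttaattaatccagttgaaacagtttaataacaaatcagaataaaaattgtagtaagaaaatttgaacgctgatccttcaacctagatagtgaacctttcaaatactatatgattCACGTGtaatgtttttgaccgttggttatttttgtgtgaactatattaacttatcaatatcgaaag
CCA1: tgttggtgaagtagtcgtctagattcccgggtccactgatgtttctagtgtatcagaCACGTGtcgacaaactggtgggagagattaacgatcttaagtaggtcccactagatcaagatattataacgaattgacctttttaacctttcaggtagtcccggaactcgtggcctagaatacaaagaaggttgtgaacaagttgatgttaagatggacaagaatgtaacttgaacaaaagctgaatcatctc
PIL1: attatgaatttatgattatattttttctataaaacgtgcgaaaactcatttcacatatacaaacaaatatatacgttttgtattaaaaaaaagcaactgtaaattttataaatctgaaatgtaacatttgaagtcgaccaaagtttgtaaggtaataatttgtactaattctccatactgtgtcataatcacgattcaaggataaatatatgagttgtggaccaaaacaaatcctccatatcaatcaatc
The first base of the G-box lay 72 bases before the start in BBX30, 118 in MYB12, 233 in TT4, 66 in ELIP1 and 193 in CCA1. A match is a sequence in this window and not a shown binding site.

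**Figure D1:**
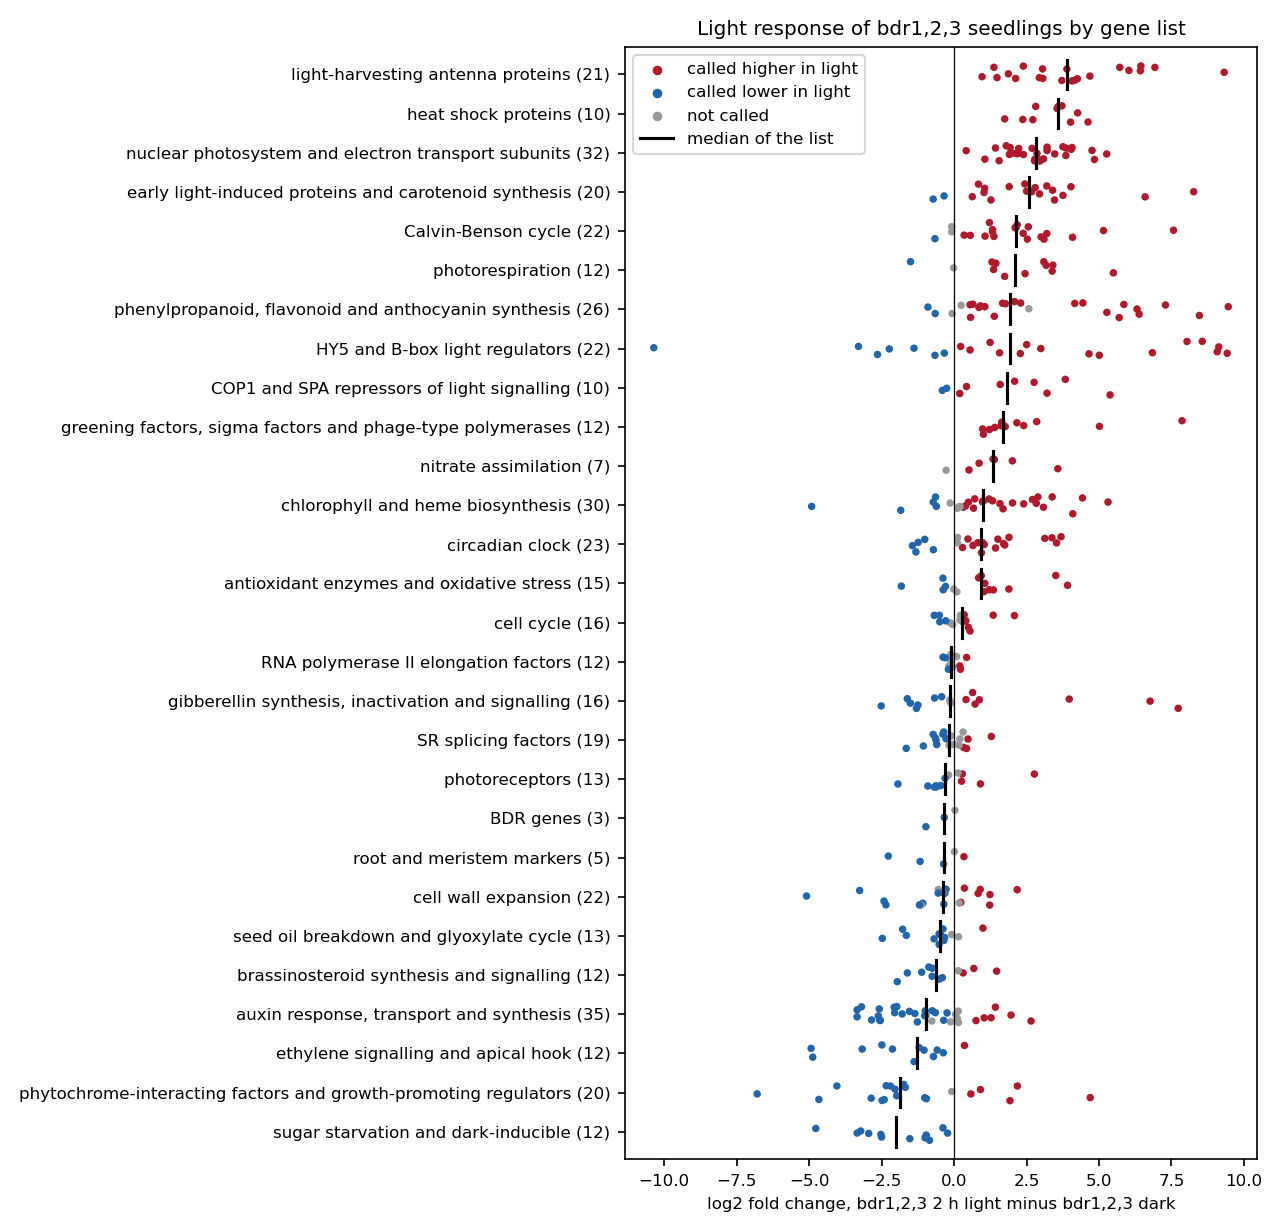
Light response of the bdr1,2,3 mutant in 28 gene lists, with each point 1 tested gene, the x axis its log2 fold change (2 h light minus dark) and the black bar the median of the list; numbers in parentheses are the genes tested. Antenna genes sit highest with a median of 3.89 and genes of sugar starvation lowest with a median of -2.01.

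Regulators that carry the light signal formed the first group. Of 22 tested HY5 and B-box regulators, 15 rose, 7 fell and none was left uncalled, with a median log2 fold change of 1.93. HY5, the bZIP activator of light-induced genes, had 250, 216 and 226 CPM in light, against 52.0, 51.9 and 37.1 CPM in the dark. Its relative HYH had 115, 100 and 94.5 CPM in light, against 3.37, 4.27 and 1.82 CPM in the dark, with a log2 fold change of 5.01 ± 0.15 (SE, edgeR adjusted p = 4.96e-17). The B-box genes divided by member. BBX24, BBX22 and BBX18 rose by 2.99, 2.5 and 4.66, while BBX20 and BBX21 fell by 3.3 and 1.38 on the log2 scale. FHY1 and FHL, which carry phytochrome A into the nucleus, fell by 2.64 and 2.23 on the log2 scale.

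The repressors rose with the activators. Of 10 COP1/SPA genes and partners, 8 rose and 2 fell (median 1.84). SPA1 had 506, 512 and 519 CPM in light, against 35.8, 37.4 and 34.3 CPM in the dark. The groups were far apart, with a log2 fold change of 3.84 ± 0.07 (SE, edgeR adjusted p = 2.39e-23). SPA3 and SPA4 rose by 3.21 and 2.09, and COP1, the ligase itself, by 1.59. RUP2, a repressor of the UV-B receptor, had 107, 110 and 97.4 CPM in light, against 2.49, 2.37 and 2.69 CPM in the dark, and its relative RUP1 rose by 2.76. The members that fell, COP10 (-0.41) and DDB1A (-0.25), fell by little.

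Photoreceptor genes moved in both directions: 4 of 13 rose and 7 fell (median -0.31), close to the background shares for rises. PHYA, the phytochrome of dark-grown seedlings, had 447, 451 and 465 CPM in light, against 1915, 1747 and 1554 CPM in the dark, a log2 fold change of -1.94 ± 0.08 (SE, edgeR adjusted p = 1.22e-16). PHYB, the main phytochrome of light-grown plants, rose by 0.91. The blue-light receptors of phototropism moved in opposite directions: PHOT2 rose by 2.77, with 327, 313 and 315 CPM in light, against 48.0, 45.3 and 46.3 CPM in the dark, and PHOT1 fell by 0.90 on the log2 scale. CRY1 was not called (0.14, edgeR adjusted p = 0.0809), though it was without dark replicate 1 (0.18, edgeR adjusted p = 0.0414), and CRY2 fell slightly (-0.31).

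**Figure D2:**
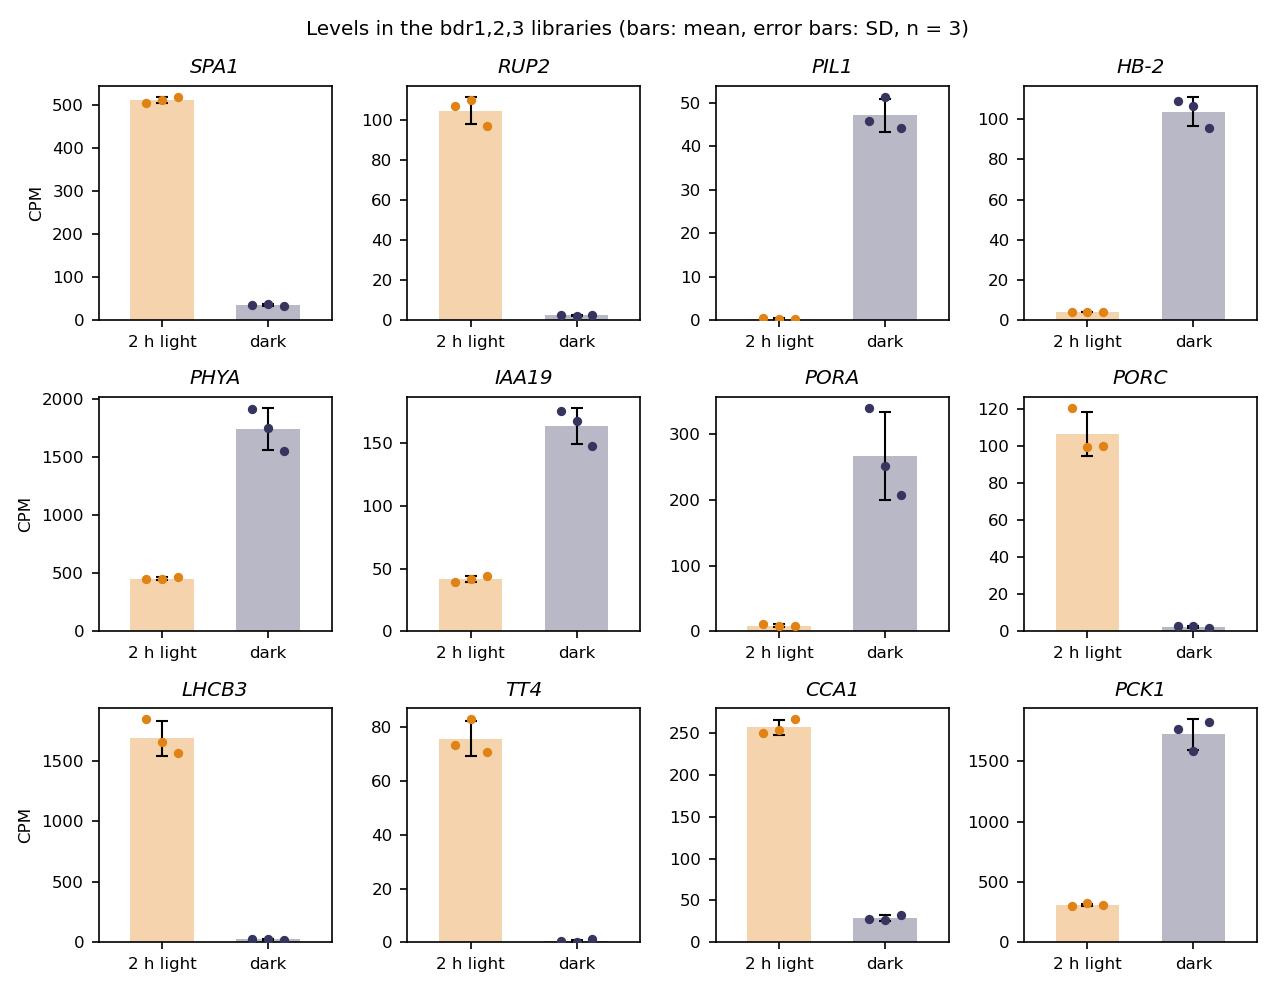
Levels (CPM, linear axes from 0) of 12 genes in the bdr1,2,3 libraries, 2 h light on the left and dark on the right of each panel; points are the 3 libraries, bars their mean and error bars the SD. In all 12 panels the light and dark points do not overlap, with PIL1 near 0 in light and TT4 near 0 in the dark.

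Of 20 PIF and growth-regulator genes, 14 fell and 5 rose, with a median of -1.86, and both promoters and inhibitors of elongation were among those that fell. Beside PIL1, the homeobox gene HB-2, a shade-induced activator of elongation, had 3.96, 4.21 and 4.08 CPM in light, against 109, 107 and 95.6 CPM in the dark. The groups did not overlap, with a log2 fold change for HB-2 of -4.66 ± 0.10 (SE, edgeR adjusted p = 6.96e-22). Its relatives HAT2 and HAT3 fell by 2.86 and 2.41, and PRE1 and PRE5, small bHLH proteins of elongation, by 2.04 and 2.48 on the log2 scale. PAR1 and PAR2, which restrain shade elongation, also fell (-4.04 and -1.98), as did IBH1, another inhibitor of elongation (-2.2). The PIF genes themselves divided: PIF7 rose by 4.70, PIF4 by 2.19, PIF5 by 1.93 and PIF1 by 0.91, and PIF3 fell by 1.01 on the log2 scale.

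Hormone genes were described pathway by pathway. Of 35 tested auxin genes, 22 fell and 6 rose (median -0.97). The auxin-conjugating enzyme gene GH3.3 had 5.89, 5.97 and 5.08 CPM in light, against 54.3, 51.3 and 50.3 CPM in the dark, a log2 fold change of -3.19 ± 0.10 (SE, edgeR adjusted p = 1.6e-18). IAA29 and IAA19, which encode early auxin-induced repressors, fell by 2.84 and 1.97 on the log2 scale. SAUR19 to SAUR24, small growth proteins encoded by near-identical copies, summed to 27.6, 24.4 and 29.7 CPM in light, against 176, 193 and 147 CPM in the dark. In contrast, DFL1, another conjugating enzyme, rose by 2.66, and SAUR14 by 1.97. TAA1, for the first step of auxin synthesis, fell by 2.07 on the log2 scale.

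Of 12 tested ethylene and apical hook genes, 11 fell and 1 rose (median -1.29). ACS5, for the rate-limiting step of ethylene synthesis, had 0.726, 1.31 and 1.18 CPM in light, against 34.0, 35.6 and 31.3 CPM in the dark. HLS1, needed for the apical hook, had 1.78, 1.31 and 1.63 CPM in light, against 16.2, 14.0 and 11.6 CPM in the dark, and EIN3, the transcription factor of the pathway, fell by 1.04 on the log2 scale. EBF2 and EBF1, for F-box proteins that bind EIN3, fell by 2.12 and 0.37, and ERS1 and CTR1 by 2.49 and 1.38 on the log2 scale. The level of ethylene signalling itself was not measured. The exception was the receptor gene ETR1, with a rise of 0.36. Of 12 brassinosteroid genes, 8 fell and 3 rose (median -0.63). BAS1, which inactivates the hormone, fell by 1.96 and CPD, of its synthesis, by 1.61 on the log2 scale, while BR6OX2 of the last step rose by 1.47.

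Gibberellin genes split evenly, with 7 of 16 higher and 7 lower (median -0.13). GA2OX1, which inactivates gibberellin, had 41.8, 41.6 and 40.5 CPM in light, against 0.350, 0.229 and 0.554 CPM in the dark, a log2 fold change of 6.76 ± 0.23 (SE, edgeR adjusted p = 1.20e-16). The synthesis gene GA3OX2 had 10.0, 11.4 and 10.9 CPM in light, against 0.0874, 0 and 0 CPM in the dark. The DELLA repressor gene GAI fell by 2.51 and the synthesis gene GA20OX1 by 1.25 on the log2 scale. Among 22 cell wall genes 11 fell and 7 rose (median -0.37). XTR7, a xyloglucan-modifying enzyme, had 34.5, 38.8 and 36.3 CPM in light, against 1409, 1314 and 1018 CPM in the dark, and the expansin genes EXPA11 and EXPA4 fell by 3.26 and 2.42, while EXPA10 rose by 2.18 on the log2 scale.

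Genes of chlorophyll synthesis rose with marked exceptions. Of 30 tetrapyrrole genes, 21 rose, 5 fell and 4 were not called (median 1.00). HEMA1, for the controlled first step of the pathway, rose by 2.84, GUN4 and GUN5, of magnesium insertion, by 4.43 and 4.1, and FC2, a ferrochelatase of the heme branch, by 3.39. The 3 protochlorophyllide oxidoreductases, which make the light-requiring step, did not move together. PORA, the form of dark-grown seedlings, had 10.8, 7.96 and 7.98 CPM in light, against 340, 252 and 208 CPM in the dark, a log2 fold change of -4.91 ± 0.20 (SE, edgeR adjusted p = 1.07e-11). PORB fell by 1.84 on the log2 scale. PORC had 121, 99.4 and 100.3 CPM in light, against 3.06, 2.67 and 2.06 CPM in the dark, a log2 fold change of 5.31 ± 0.13 (SE, edgeR adjusted p = 6.23e-20). Summed over the 3 genes, the level was 230, 198 and 202 CPM in light, against 746, 573 and 498 CPM in the dark. FLU, a brake on the pathway, fell by 0.64 on the log2 scale.

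**Figure D3:**
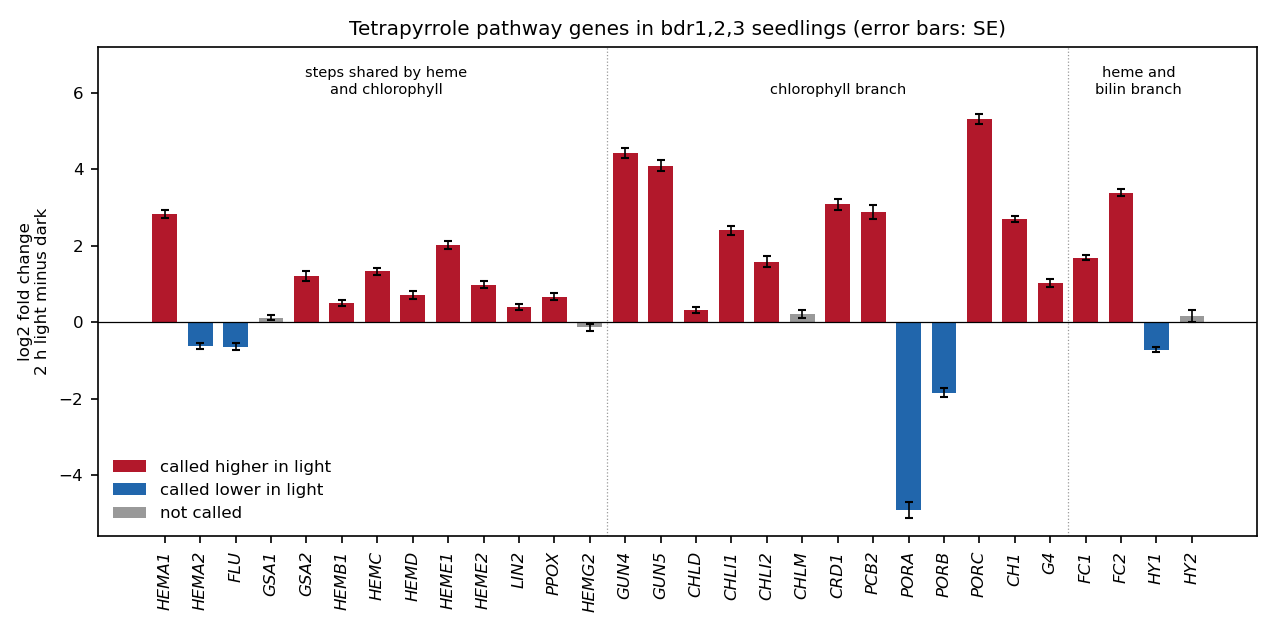
Log2 fold change (2 h light minus dark, bars with SE) of 30 tetrapyrrole genes in the bdr1,2,3 mutant, ordered along the pathway from left to right. PORA at -4.91 and PORC at 5.31 stand at the extremes of the same enzymatic step.

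Transcripts of the light-harvesting antenna rose. All 21 tested antenna genes were called higher (median 3.89), and their summed level was 12900 to 14700 CPM over the light libraries, against 1410 to 2050 CPM over the dark libraries. LHCB3, of the major antenna of photosystem II, had 1843, 1656 and 1560 CPM in light, against 30.4, 25.7 and 20.2 CPM in the dark, a log2 fold change of 6.03 ± 0.15 (SE, edgeR adjusted p = 1.32e-19). LHCA1, of photosystem I, rose by 5.72. The smallest rise was that of LHCB4.1 (0.97). Counts of the near-identical LHCB1 copies may be split between them, and their sum was 2737, 2679 and 2649 CPM in light, against 359.3, 271.2 and 213.1 CPM in the dark. All 32 photosystem and electron transport subunits encoded in the nucleus rose as well (median 2.82). PSAH-2 of photosystem I rose by 5.27 and PSBS, needed for heat dissipation in photosystem II, by 4.84, whereas PSAE-2 rose by only 0.42, a call that was lost in a fit of the 6 mutant libraries alone (0.45, edgeR adjusted p = 0.0559).

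Most listed genes for carbon metabolism of the chloroplast rose as well. Of 22 Calvin-Benson genes, 19 rose and 1 fell (median 2.12). RCA, which activates Rubisco, had 3261, 3324 and 3154 CPM in light, against 228, 180 and 163 CPM in the dark. FBA1, an aldolase, rose by 5.16, and the Rubisco small-subunit copies summed to 5692, 5678 and 5354 CPM in light, against 1799, 1470 and 1307 CPM in the dark. FBA3, another aldolase, was the gene that fell (-0.66). Of 12 photorespiration genes, 10 rose and 1 fell (median 2.1). The call of PGLP1, counted among the rises, rests on few counts. It had 0.484, 0 and 0.363 CPM in light, against 0, 0.0763 and 0 CPM in the dark, which overlapped. GLDP1, of glycine decarboxylase, had 2505, 2694 and 2301 CPM in light, against 57.0, 54.0 and 54.8 CPM in the dark, while AT1G80380 fell by 1.50 on the log2 scale. In nitrate assimilation 6 of 7 tested genes rose (median 1.35), led by the glutamate synthase gene GLU1 (3.58) and by GS2 (2.01).

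All 12 greening factors, sigma factors and phage-type polymerases rose (median 1.71). SIG5, a sigma factor that directs the plastid polymerase, had 437, 417 and 386 CPM in light, against 1.36, 1.91 and 2.29 CPM in the dark, a log2 fold change of 7.87 ± 0.15 (SE, edgeR adjusted p = 7.54e-22). CGA1, a GATA factor of greening, rose by 5.02 and the chloroplast activator genes GLK2 and GLK1 by 2.41 and 1.4. The plastid-encoded genes showed no such common rise: 5 of 60 tested were called higher and 9 lower. Their transcripts enter libraries selected for poly(A) poorly, with sums of 174 to 288 CPM in light, against 167 to 224 CPM in the dark.

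Protective genes rose in most cases. Of 20 genes for early light-induced proteins and carotenoids, 18 rose and 2 fell (median 2.59). ELIP1, which binds pigment during greening, had 554, 514 and 432 CPM in light, against 1.92, 1.6 and 1.11 CPM in the dark, a log2 fold change of 8.27 ± 0.24 (SE, edgeR adjusted p = 3.02e-14). ELIP2 rose by 6.59, and PSY, the entry enzyme of carotenoid synthesis, by 3.76. The 2 genes that fell were LIL3:2 (-0.72) and LUT1 (-0.34), a hydroxylase of lutein synthesis. Of 26 tested phenylpropanoid and flavonoid genes, 21 rose and 2 fell (median 1.93). TT4, the chalcone synthase that opens flavonoid synthesis, had 73.4, 83.0 and 70.9 CPM in light, against 0.350, 0.0763 and 1.11 CPM in the dark, and F3H rose by 8.46. The flavonol enzyme FLS1 had 10.0, 9.38 and 8.79 CPM in light, against 0.0874, 0.229 and 0 CPM in the dark. The late anthocyanin genes DFR and LDOX stayed at or below 0.323 CPM in all 6 libraries and were not called. MYBL2, a repressor of anthocyanin synthesis, fell by 0.90 and TT7 by 0.65 on the log2 scale.

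All 10 heat shock genes rose (median 3.57), while both groups carried the same temperature label. HSP70 had 1514, 1729 and 1546 CPM in light, against 73.4, 66.6 and 110 CPM in the dark, a log2 fold change of 4.26 ± 0.14 (SE, edgeR adjusted p = 8.98e-16). HSP17.4, a small heat shock protein, rose by 4.62, and the sum over the list was 3190 to 3480 CPM in light, against 203 to 316 CPM in the dark. The heat and stress factor gene HSFA2 rose by 3.92 and the ascorbate peroxidase gene APX2 by 3.51. Over 15 antioxidant and oxidative stress genes, 9 rose and 4 fell (median 0.94). CAT3, a catalase, fell, with 1587, 1800 and 1878 CPM in light, against 6309, 5962 and 6306 CPM in the dark, while CAT2 rose by 1.06.

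Among 23 clock genes, 16 rose and 5 fell (median 0.95). CCA1, a morning repressor, had 250, 253 and 266 CPM in light, against 28.1, 26.9 and 33.0 CPM in the dark, a log2 fold change of 3.13 ± 0.08 (SE, edgeR adjusted p = 2.26e-20). PRR9, ELF4 and LNK1 rose by 3.69, 3.54 and 3.38. The evening gene TOC1 fell by 1.01, LUX by 1.44 and its relative BOA by 1.32 on the log2 scale.

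Most listed genes of reserve use and starvation fell. All 12 genes of sugar starvation and dark induction were lower in light (median -2.01), with sums of 2410 to 2700 CPM, against 10900 to 12600 CPM in the dark. SEN1, induced by darkness, had 36.6, 46.4 and 46.9 CPM in light, against 1251, 1185 and 1107 CPM in the dark, a log2 fold change of -4.77 ± 0.12 (SE, edgeR adjusted p = 1.05e-19). ASN1, an asparagine synthetase of carbon shortage, fell by 3.22 and the glucosidase gene DIN2 by 3.34 on the log2 scale. Of 13 genes of seed oil breakdown and the glyoxylate cycle, 10 fell and 1 rose (median -0.47). PCK1, which passes carbon from oil into sugar, had 299, 323 and 308 CPM in light, against 1768, 1583 and 1823 CPM in the dark. ICL, of the glyoxylate cycle, fell by 1.77 on the log2 scale, and the rising member was the peroxisomal malate dehydrogenase gene PMDH2 (1.00).

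Other groups moved less. Of 12 elongation factors of RNA polymerase II, 3 rose and 3 fell, with log2 fold changes between -0.38 and 0.43 (median -0.09). Among them, the call of GTB1 (-0.19) was lost without any 1 of 5 libraries, light replicate 1 or 3 or dark replicate 1, 2 or 3 (edgeR adjusted p of 0.0515 to 0.16). That of SPT4-2 (0.20) was lost without light replicate 1 or 3 or dark replicate 2 or 3 (edgeR adjusted p of 0.0778 to 0.17) and with DESeq2 (adjusted p = 0.0965). TFIIS, whose central domain BDR proteins share, had 47.0, 40.4 and 41.4 CPM in light, against 31.8, 29.4 and 34.0 CPM in the dark. Of 19 SR splicing factors, 9 fell and 4 rose (median -0.17), from RS40 (-1.65) to SR30 (1.29). Of 16 cell cycle genes, 8 rose and 4 fell (median 0.26), with the ribonucleotide reductase gene RNR2A highest (2.09) and CYCD3;2, a D-type cyclin, next (1.35). Of 12 root and meristem markers, 5 had enough counts to be tested. SCR, of the ground tissue, rose (0.34), and STM, of the shoot meristem (-0.36), CASP1, of the endodermis (-1.17), and RHD6, of root hairs (-2.27), fell, while 1 member was not called. The call of RHD6 was lost without dark replicate 3 (-1.1, edgeR adjusted p = 0.115). That of STM was lost without light replicate 1 (-0.28, edgeR adjusted p = 0.0766), light replicate 2 (-0.29, edgeR adjusted p = 0.079) or dark replicate 1 (-0.31, edgeR adjusted p = 0.0638). The summed level of these markers was 186 to 196 CPM in light, against 286 to 305 CPM in the dark. This fall lay mainly in CASP1, with a mean of 90.3 CPM in light, against 203.2 CPM in the dark. Mean SCR was 55.08 CPM in light, against 43.46 CPM in the dark. The sum therefore does not describe the markers as a group, and its part in the other falls was not tested. A set of ribosomal protein genes of the nucleus was picked by their product lines, without lines that name plastids or mitochondria. It may still hold ribosomal proteins of organelles whose product line does not say so. Of its 291 tested genes, 147 (50.5%) rose and 43 (14.8%) fell, with a median of 0.25.

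The 5 genes with the highest CPM in light, a measure that grows with gene length, were no photosynthesis genes. The aquaporin gene PIP1B had 8075, 8850 and 8857 CPM in light, against 2578, 2550 and 2235 CPM in the dark, and PIP2A, another aquaporin of the plasma membrane, rose by 1.39. TIP2, an aquaporin of the vacuole, went the other way, with 4129, 4939 and 4907 CPM in light, against 9061, 7210 and 7218 CPM in the dark. COR47, a dehydrin, rose by 1.1 and PYK10, a glucosidase of ER bodies, by 0.41.

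Whether the response of the mutant differed from that of the wild type was tested directly, as the mutant response minus the wild-type response. The difference was called for 360 of the 19521 tested genes (1.84%), higher in the mutant for 215 and lower for 145. At an unadjusted p below 0.05 there were 2696 genes. The count depended on single libraries: 234 differences were called without mutant 2 h replicate 2, 222 without wild-type 2 h replicate 2 and 218 without wild-type dark replicate 1. Without a library, the count higher in the mutant ranged from 124 to 229, and the count lower ranged from 90 to 179. The libraries that moved the higher count by over 1.5 times were mutant 2 h replicates 2 and 3 (137 and 143), wild-type 2 h replicates 1 and 2 (143 and 132) and wild-type dark replicates 1 and 2 (124 and 133), and those for the lower count were wild-type 2 h replicate 2 (90) and wild-type dark replicate 1 (94). Of 50 called differences in the gene lists and among the largest, 22 kept their call under all 21 alternatives, and the genes named below are among those 22 unless it is said otherwise.

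In the antenna, photosystem and Calvin-Benson lists, genes rose less in the mutant where a difference was called. It was called for 4 of 21 antenna, 1 of 32 photosystem and 5 of 22 Calvin-Benson genes, against 1.84% of all tested genes. All of these were negative, as were 145 of the 360 over all tested genes. LHCB5, LHCB1.4, PSBP-1 and CP12-2 kept the call under all alternatives. No difference was called among the 30 tetrapyrrole genes. The list of early light-induced proteins and carotenoids had 1 higher and 1 lower, and that of greening and sigma factors had 1 higher. LHCB5, a minor antenna protein, had 1051, 952 and 882 CPM in light in the mutant and 1418, 1766 and 1539 CPM in the wild type, and in the dark it had 136, 114 and 96.9 CPM in the mutant and 110, 111 and 115 CPM in the wild type. The difference for LHCB5 was -0.76 ± 0.15 (SE, edgeR adjusted p = 0.00804). PSBP-1, of the oxygen-evolving complex, differed by -0.79 ± 0.13 and CP12-2, a regulator of the Calvin-Benson cycle, by -1.42 ± 0.21. LHCB1.4 differed by -2.59 ± 0.40, with a mean of 33.67 CPM in the mutant and 61.01 CPM in the wild type in light. In the dark its mean was 1.73 CPM in the mutant and 0.5157 CPM in the wild type. The latter rests on few counts, as 3 counts equal 0.2503 to 0.395 CPM there. The sum of the LHCB1 copies had a log2 ratio of light to dark of 3.26 in the mutant and 4.32 in the wild type. The mean sums were 2688 and 3544 CPM in light, and 281.2 and 177.7 CPM in the dark.

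In the auxin list, the difference was called for 7 of 35 tested genes, against 1.84% of all tested genes. All 7 were positive, in genes that fell in the wild type, and 3 of them kept the call under all alternatives. Over all tested genes, 215 of the 360 called differences were positive. IAA19 had 39.5, 41.9 and 43.8 CPM in light in the mutant and 22.1, 20.9 and 22.2 CPM in the wild type, with a log2 fold change of -1.97 in the mutant and -2.76 in the wild type. The difference was 0.79 ± 0.10 (SE, edgeR adjusted p = 6.46e-05), so IAA19 fell less in the mutant. GH3.3 (0.80 ± 0.17) and SAUR19 (1.21 ± 0.25) showed the same direction. EXPA8, an expansin, rose by 0.36 in the mutant and fell by 0.36 on the log2 scale in the wild type, a difference of 0.72 ± 0.10. PIF4 (0.65 ± 0.11), ELF4 (0.94 ± 0.18) and HYH (1.34 ± 0.23) rose further in the mutant, each from a lower dark level. Mean ELF4 was 42.19 CPM in the mutant and 42.43 CPM in the wild type in light, against 3.685 and 7.064 CPM in the dark. PIF4 had 118.4 and 112.7 CPM in light, against 25.91 and 38.74 CPM in the dark. For HYH the means were 103.4 and 81.31 CPM in light, against 3.152 and 6.35 CPM in the dark.

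Some genes changed direction. PHYE, a phytochrome, had 24.5, 25.7 and 28.3 CPM in light in the mutant, against 35.6, 33.0 and 38.5 CPM in its dark libraries. In the wild type it had 47.3, 60.4 and 59.5 CPM in light, against 31.9, 32.7 and 38.1 CPM in the dark. The difference was -1.15 ± 0.16 (SE, edgeR adjusted p = 0.000289). LUT1 differed by -1.09 ± 0.12 and fell in the mutant but rose in the wild type, and the genotypes lay further apart in the dark than in light. Mean LUT1 was 36.98 CPM in the mutant and 42.58 CPM in the wild type in light, against 46.79 and 25.37 CPM in the dark. LUT1 overlaps AT3G53140 on the same strand. CIPK16, a kinase of calcium signalling, had 24.5, 25.9 and 25.4 CPM in light in the mutant, against 55.3, 41.0 and 38.5 CPM in its dark libraries. In the wild type CIPK16 had 11.7, 12.1 and 9.15 CPM in light, against 3.95, 3.06 and 5.01 CPM in the dark (difference -2.28 ± 0.22). Opposite calls were made for 15 genes that rose and 21 genes that fell in the mutant, and the difference itself was called for 29 of them. HSP18.2 rose in both but less in the mutant (-1.38 ± 0.28), from a higher dark level. Its mean was 19.45 CPM in the mutant and 21.63 CPM in the wild type in light, against 5.823 and 2.438 CPM in the dark.

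Several of the largest differences were in genes of low level. AT1G78995 had 1.37, 0.682 and 0.635 CPM in light in the mutant and 4.71, 6.24 and 4.57 CPM in the wild type, for a difference of -3.40 ± 0.59. Its rise within the mutant (0.86) was called but lost without light replicate 1 (0.45, edgeR adjusted p = 0.343) or dark replicate 1 (0.41, edgeR adjusted p = 0.392). WRR4, a disease resistance gene, differed by -3.25 ± 0.41, ASG4 by -3.10 ± 0.56 and AT2G41120 by -2.39 ± 0.50. On the positive side stood AT4G26095 (3.00 ± 0.27), a non-coding gene that overlaps its neighbours, AT1G69020 (2.64 ± 0.44), whose mutant level of at most 0.625 CPM gave no call for light (0.84), and the kinase gene AT5G21222 (1.94 ± 0.16). F3H (2.32 ± 0.57), SDR1 (2.00 ± 0.52) and AT1G29490 (1.88 ± 0.40) were also among the 6 largest positive differences, but the calls were lost without 10 of 12 libraries for F3H (over all alternatives 2.06 to 3.04), without 8 of 12 for SDR1 (1.72 to 2.27) and, for AT1G29490, without wild-type 2 h replicate 1.

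**Figure D4:**
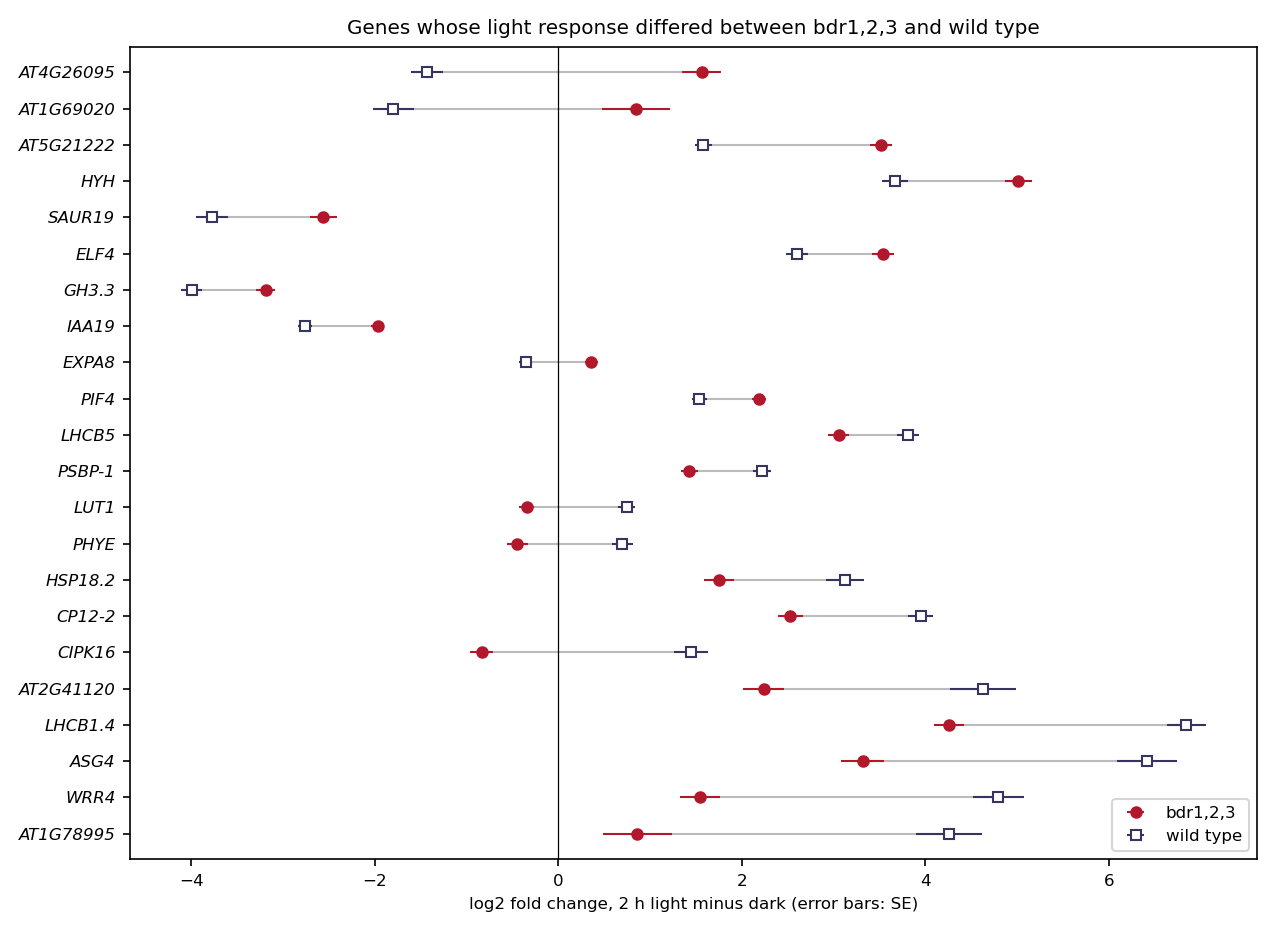
Log2 fold change (2 h light minus dark, with SE) of the 22 genes whose difference kept its call under all alternatives, with filled circles for bdr1,2,3 and open squares for the wild type. ASG4, WRR4 and LHCB1.4 rose less in the mutant, and PHYE, LUT1 and CIPK16 lie on opposite sides of 0.

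The position of these genes was described last. Among protein-coding genes whose response was lower in the mutant, 92 of 131 (70.2%) had their nearest upstream coding gene on the same strand. The median distance to the upstream neighbour was 598 bp over all 131 and 307 bp over the 92 on the same strand. Among those with a higher response the share was 53.2% of 201, with a median distance of 1980 bp over all 201 and 1400 bp over those on the same strand. Among all 17803 tested protein-coding genes with an upstream neighbour the share was 51.9%, with 955 bp over all and 692 bp over those on the same strand. Genes that overlap their upstream neighbour were left out of all these sets. In the light response of the mutant itself the shares were 50.5% of the genes called higher and 53.1% of those called lower. No test was run on these shares.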

How the data were processed

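RNA from whole seedlings was sequenced from stranded mRNA libraries (TruSeq). Per the labels, reads were aligned to TAIR10 with STAR 2.5.2b, handled with SAMtools 1.3.1 and counted with featureCounts, and the authors deposited raw counts per gene; the strand setting is not given in the sources used here. Libraries were grouped by their labels. Genes were filtered with filterByExpr, and counts were scaled by TMM and tested with edgeR 4.0.16 (R 4.3.3, robust quasi-likelihood, Benjamini-Hochberg adjustment over all tested genes) in 1 fit of all 18 light-experiment libraries, with no block. Log2 CPM for the principal component analysis used a prior count of 2. The interaction contrast gave the difference from the wild type. Named genes were the 10 largest rises and falls, up to 3 each way per list, the 6 largest differences each way, the 5 highest levels and the BDR genes; other list members were named, after their values were seen, to describe a family. Members and lists were chosen with earlier results of these data known. Promoters were taken from RefSeq's TAIR10.1, and no coordinates were converted. The tests were checked on simulated counts in which few genes changed. That setting does not cover the scaling or false calls where most genes change, as in these data. Alternatives were DESeq2 1.42.0, RLE and upper-quartile scaling, other filters, a fold minimum of 1.5, a replicate block and leaving out each library. Depth is given as total counts, and replicates limit the precision. The deposited normalized counts were not used.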

Additional observations from a re-analysis of the deposited data

Results flagged for a closer look

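Differences between the mutant and wild-type light responses were looked at more closely because the test of the difference itself passed the threshold. This was so for 360 genes. Among those named, the mutant response was lower, as mutant minus wild type on the log2 scale, for AT1G78995 (-3.40), WRR4 (-3.25), ASG4 (-3.10), LHCB1.4 (-2.59), AT2G41120 (-2.39), CIPK16 (-2.28), CP12-2 (-1.42), HSP18.2 (-1.38), PHYE (-1.15), LUT1 (-1.09), PSBP-1 (-0.79), LHCB5 (-0.76) and BDR2 (-0.61). It was higher for AT4G26095 (3.00), AT1G69020 (2.64), F3H (2.32), SDR1 (2.00), AT5G21222 (1.94), AT1G29490 (1.88), HYH (1.34), SAUR19 (1.21), ELF4 (0.94), GH3.3 (0.80), IAA19 (0.79), EXPA8 (0.72) and PIF4 (0.65). The calls of BDR2, F3H, SDR1 and AT1G29490 were lost under at least 1 alternative. So were those of 24 further list members with a called difference, among them HY5, COP1, SPA1, LHY, LUX, RVE8, PRK and RBCS1A. They enter the counts of called differences per list, and their single values are not given.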

How the results depend on the processing

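Under a fold minimum of 1.5, a stricter call by construction, the light response of the mutant had 8271 calls, of which 3843 were lower, and the difference from the wild type had 213 (119 higher and 94 lower). Leaving out each library in turn gave 12470 to 12887 light calls, 6277 to 6452 higher and 6156 to 6435 lower. The same step gave 218 to 380 called differences, 124 to 229 higher and 90 to 179 lower, with fewer samples in each fit. DESeq2 gave 12570 light calls and 451 differences, and upper-quartile scaling gave 13302 (6082 higher and 7220 lower), with the median of all genes shifted by -0.065. The BDR1 light response, which was not called, changed sign under upper-quartile scaling (-0.033), and without single libraries its log2 fold change ranged from -0.116 to 0.146, below 0 without mutant 2 h replicate 3 (-0.04) and mutant dark replicate 2. The DFR light response, also not called, ranged from -1.33 (without mutant 2 h replicate 1) to 0.687; the cause was not tested. Over 211 named genes checked under the alternatives, 3097 of 3154 light values kept direction and side of the threshold. Same-numbered light and dark libraries of the mutant did not deviate together (correlations of 0.0405, -0.0579 and -0.0791), so the numbers do not pair them. Between mutant and wild type, same-numbered libraries correlated by 0.181, 0.0316 and 0.284 in the dark. Those with unlike numbers ranged from -0.303 to 0.16 there. After 2 h of light the same-numbered values were 0.0355, 0.00706 and 0.0875. A replicate block gave 12725 light calls, against 12733 without it in the 6 mutant libraries, and 298 differences, against 323 without it in the 12 libraries. Depth limits genes near 3 counts, 0.131 to 0.272 CPM in the mutant libraries.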

Other observations

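Of 235 tested pentatricopeptide repeat genes, which process organelle RNA, 74 rose and 31 fell, with a median log2 fold change of 0.13. The share that rose (31.5%) was near that of all tested genes and the share that fell (13.2%) was below it. Their summed level was 2440 to 2600 CPM in light, against 1690 to 1850 CPM in the dark, with no overlap. Of 42 tested proteasome subunits, 8 rose and 13 fell (median -0.03). Of 16 tested mitochondrion-encoded genes 3 rose, and their sum was 380 to 1130 CPM in light, against 400 to 584 CPM in the dark, with the highest value in mutant 2 h replicate 3.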
